A study of Mus musculus with 24 samples.

Results

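The microRNA (miRNA) mmu-miR-210-3p was followed through the development of the mouse mammary gland, together with mmu-miR-210-5p, the strand cut from the other side of the same hairpin. These were the 2 rows named miR-210 among the 1009 miRNAs measured. They were chosen on measured values of these same libraries, namely the increase of miR-210-3p during pregnancy and lactation and its decrease at involution, so that its levels and changes between stages are given as a description, with no test.

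miRNAs are short RNAs that guide a silencing complex to messenger RNAs, mostly through their seed, the bases next to the 5′ end. miR-210-3p is best known as a miRNA of low oxygen: hypoxia-inducible factor 1 activates transcription of its precursor in most cell types, and one of its best known targets is ISCU, a scaffold protein on which the iron-sulphur clusters of mitochondrial enzymes are assembled. In the mouse mammary gland, the alpha subunit of hypoxia-inducible factor 1 is known to be needed for the secretory differentiation of the epithelium. Neither oxygen nor messenger RNA was measured in these samples, so the name "hypoxia-linked" rests on background alone.

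The mature strands are shown because the reads assigned to them carry the result. The seed (bases 2 to 8) is in capitals, and the sequences are those of the RefSeq tables for GRCm38.p6.
mmu-miR-210-3p: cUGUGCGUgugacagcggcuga
mmu-miR-210-5p: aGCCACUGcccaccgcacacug
Both lie in the hairpin Mir210 of 110 bases, shown next with both mature strands in capitals, miR-210-5p at positions 28 to 49 and miR-210-3p at positions 66 to 87.
Mir210: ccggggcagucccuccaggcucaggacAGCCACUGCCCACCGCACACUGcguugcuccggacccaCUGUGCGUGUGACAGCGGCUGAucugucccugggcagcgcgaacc
The hairpin is encoded on the minus strand at chr7:141221384-141221493 (GRCm38), with miR-210-3p at chr7:141221407-141221428 and miR-210-5p at chr7:141221445-141221466. No other annotated gene overlaps it. The nearest protein-coding genes are Rassf7, which ends 2726 bases away, and Phrf1, which begins 7291 bases away. Of the 1679 mature mouse miRNAs in the RefSeq table, 0 others carried the seed of miR-210-3p or that of miR-210-5p.

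Small RNA came from abdominal and inguinal mammary glands homogenised whole, from inbred C57BL/6 females, and each mouse gave 1 library. The 24 libraries comprised 6 adult mice of 10 weeks of age (W10), 6 mice at day 18 of gestation (P18), 6 at day 7 of lactation (Lac7) and 6 at day 3 of involution (Inv3). Involution is the regression of the gland once suckling has ended. The design text of the series gives these last days the other way round, as day 3 of lactation and day 7 of involution, and the labels of the samples were followed here. Values are reads per 1000000 reads assigned to miRNAs (RPM). The libraries held 660346 to 1165321 such reads, so that 1 read was worth 0.858 to 1.51 RPM. An undetected miRNA could have been present at up to 2.57 to 4.54 RPM (3 reads, counting error only). Depth was lowest in lactation: the Lac7 libraries held 660346 to 751890 reads, with a limit of 3.99 to 4.54 RPM. Of the other libraries, only that of Inv3 mouse 6, with 722068 reads, was in this range. The 6 adult mice are numbered 1 to 5 and 7.

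miR-210-3p was low in adult glands, higher in pregnant mice, highest in lactating mice and lower again at involution. In W10 mice it ranged from 12.9 to 44.6 RPM with a median of 35.3, and in P18 mice from 228 to 398 RPM with a median of 299. In Lac7 mice it ranged from 659 to 835 RPM with a median of 730. In Inv3 mice the 6 values were 22.5, 26.6, 38.1, 104, 117 and 137 RPM. The values of W10, P18 and Lac7 mice did not overlap, and every Inv3 mouse was below every P18 and Lac7 mouse. Inv3 and W10 mice overlapped, since 3 of the Inv3 mice were above all W10 mice and the other 3 fell within the W10 range.

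**Figure D1:**
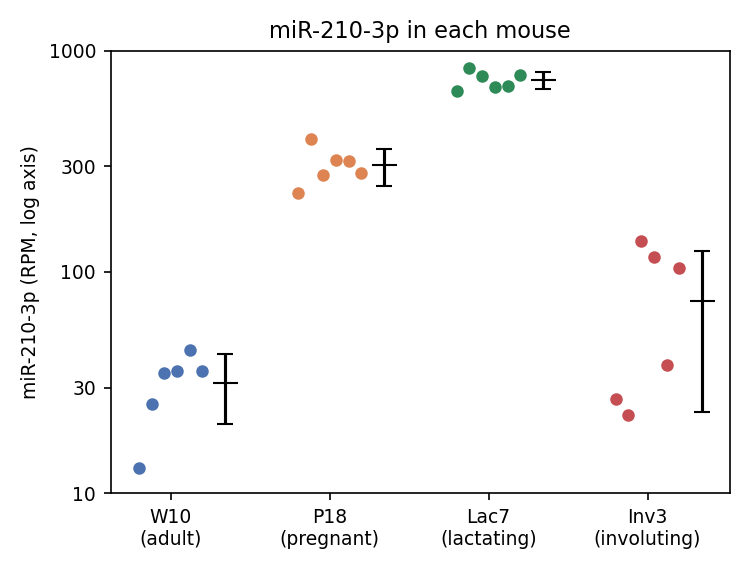
Level of miR-210-3p (RPM, log axis) in each of the 24 mice by stage, with 1 point per mouse and the mean ± SD of the 6 mice of a stage. The W10, P18 and Lac7 mice form 3 separate bands, while the Inv3 mice spread from 22.5 to 137 RPM and overlap only with the W10 mice.

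The stage means were 31.6 ± 11.0 RPM at W10, 303 ± 57.4 RPM at P18, 737 ± 67.1 RPM at Lac7 and 74.2 ± 50.8 RPM at Inv3 (SD, n = 6 each). The mice of a stage were most alike in lactation, where the coefficient of variation was 9.09%. It was 18.9% at P18, 34.8% at W10 and 68.5% at Inv3. The low values rest on few reads: the W10 libraries held 12 to 51 reads of miR-210-3p and the Inv3 libraries 25 to 139, against 224 to 384 at P18 and 439 to 624 at Lac7. The lowest value, that of W10 mouse 1, came from 12 reads, for which the 95% Poisson interval is 6.69 to 22.6 RPM. Counting error does not span the gap among the Inv3 mice. Inv3 mouse 5, next below the gap, had 40 reads with an interval of 27.2 to 51.9 RPM. Inv3 mouse 6, next above it, had 75 reads with an interval of 81.7 to 130.2 RPM. By the order of stage means among all 1009 miRNAs, miR-210-3p moved from place 233 at W10 to 97 at P18 and 71 at Lac7, and was at place 159 at Inv3. Even in lactation it took only 0.0737% of the miRNA reads.

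The first comparison asks how the level changed from the adult gland to late pregnancy. The mean of miR-210-3p was 9.61-fold higher at P18 than at W10, with a log2 fold change of 3.30 (SE 0.34) on the log2(RPM + 1) scale. The miRNAs tested were the 544 whose mean reached 1 RPM in at least 1 of the stages, and 9.74% of them had all P18 mice above all W10 mice. A miRNA was called where the log2 fold change was 1 or more in size and the p of limma, adjusted after Benjamini-Hochberg, was under 0.05. This held for 7.54% in the higher and 20.0% in the lower direction. Nothing is read from these shares about miR-210-3p, which was chosen on this contrast.

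Between late pregnancy and lactation, the mean was a further 2.43-fold higher, with a log2 fold change of 1.30 (SE 0.34). All Lac7 mice were above all P18 mice, as for 9.93% of the miRNAs tested, and 7.54% were called higher and 22.6% lower. From W10 to Lac7 the means differed 23.4-fold. The SE of 0.34 is shared by all stages and moderated by limma (eBayes), so here it carries the wide spread of the Inv3 mice. In fits of only the 12 libraries of a comparison, it was 0.25 for P18 against W10 and 0.12 for Lac7 against P18. In such fits it was larger than 0.34 for the involuting mice, at 0.42 for Inv3 against Lac7 and 0.43 for Inv3 against W10. The pooled SD between mice of a stage was 0.66 on the log2 scale.

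At day 3 of involution, the mean was 9.94-fold lower than at Lac7, with a log2 fold change of -3.63 (SE 0.34). Among the miRNAs tested, 11.2% had all Inv3 mice below all Lac7 mice, 10.3% were called lower and 16.5% higher. The Inv3 mean was also 4.09-fold below the P18 mean, with no overlap. The share of all miRNAs tested without overlap was not computed for Inv3 against P18, so nothing is read from this separation.

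The level at involution was also set against that of the adult gland. The Inv3 mean was 2.35-fold that of W10 with overlapping mice, and the log2 fold change was 0.96 (SE 0.34). The same difference was 1.64 with edgeR on the recovered reads and 1.32 on log2 values scaled by DESeq2 size factors. In this comparison, 5.51% of miRNAs were called higher and 19.5% lower.

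The scale itself moved between stages. Under DESeq2 size factors, which set the typical miRNA equal between libraries, the median log2 fold change of all miRNAs tested moved from -0.32 to -0.08 for P18 against W10, from -0.34 to -0.13 for Lac7 against P18, from 0.28 to 0.17 for Inv3 against Lac7 and from -0.41 to -0.09 for Inv3 against W10. The share of calls that were higher went from 27.3% to 38.7%, from 25.0% to 39.3%, from 61.6% to 54.6% and from 22.1% to 38.2%. For miR-210-3p this scaling gave stage means of 25.1 ± 8.82, 288 ± 51.4, 867 ± 86.9 and 75.8 ± 49.8 in the order W10, P18, Lac7 and Inv3 (SD, n = 6), and the order of the stages was kept.

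miR-210-5p was close to absent from the counts. Of the 5507 reads assigned to both strands over all libraries, 2 were miR-210-5p, which is 0.0363% (95% Wilson interval 0.00996 to 0.132%). One of these reads was in P18 mouse 1 (1.02 RPM) and the other in Inv3 mouse 5 (0.95 RPM), and the other 22 libraries had 0. At Lac7, where miR-210-3p was most abundant, 0 of 3112 reads of the hairpin were miR-210-5p. This allows a share of up to 0.0964% with 3 reads as the limit, or up to 0.123% by the Wilson interval. At P18 the share was 1 of 1777 reads (0.0563%, Wilson interval 0.00993 to 0.318%). At Inv3 it was 1 of 425 (0.235%, Wilson interval 0.0415 to 1.32%). At W10 it was 0 of 193, which allows up to 1.55% with 3 reads as the limit, or 1.95% by the Wilson interval. miR-210-5p failed the filter on low values, so it was not among the miRNAs tested, and no fold change is given. At this depth a change of its share between stages was not detectable.

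Such a one-sided hairpin was uncommon but not particular to miR-210. Among the 139 miRNA names with both strands listed and at least 1000 reads in all, the strand with fewer reads took a median of 1.65% of them. It took under 1% in 53, and 13 had a smaller share than miR-210.

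The mammary gland fills with epithelium during pregnancy, so the level in a whole gland also depends on how much of the gland is epithelial. Fewer cells of a type and less RNA per cell cannot be told apart in such bulk samples. As a measure, the RPM of 9 miRNAs known from epithelial cells was summed. They are miR-429-3p, miR-141-3p, miR-200c-3p, miR-200b-3p and miR-200a-3p of the miR-200 family, which keeps cells epithelial by repressing Zeb1 and Zeb2, then miR-183-5p, miR-96-5p and miR-182-5p of one cluster, and miR-205-5p, known from basal epithelial cells. The sum was 18210 ± 2238 RPM in adult mice, 61252 ± 5680 in pregnant mice, 130821 ± 8453 in lactating mice and 52448 ± 26148 in involuting mice (SD, n = 6). Most of the sum at Lac7 came from miR-200a-3p and miR-200b-3p, with means of 73975 and 31252 RPM. P18 was 3.36-fold above W10 for the sum and 9.61-fold for miR-210-3p, and Lac7 was 2.14-fold and 2.43-fold above P18. Inv3 was 2.49-fold below Lac7 for the sum and 9.94-fold for miR-210-3p. Inv3 was 2.88-fold above W10 for the sum, with no overlap, and 2.35-fold for miR-210-3p, with overlap.

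**Figure D2:**
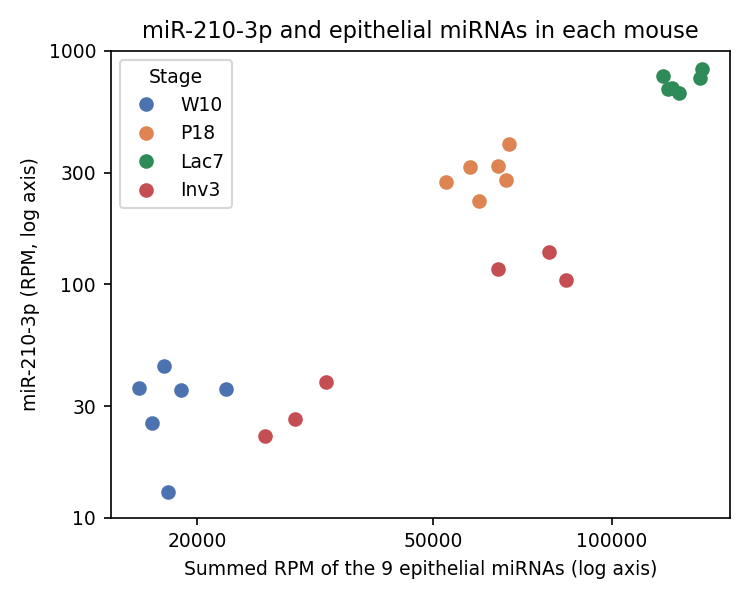
Level of miR-210-3p (RPM, log axis) against the summed level of the 9 epithelial miRNAs (RPM, log axis) in each of the 24 mice, coloured by stage. The 3 Inv3 mice with the most epithelial miRNA reach the range of the P18 mice on the horizontal axis and lie below all of them on the vertical axis.

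Divided by this sum, miR-210-3p stood at 1.75 ± 0.634 RPM per 1000 RPM of epithelial miRNAs in W10 mice, 4.95 ± 0.794 in P18 mice, 5.64 ± 0.455 in Lac7 mice and 1.29 ± 0.407 in Inv3 mice (SD, n = 6). The W10 mice ranged from 0.724 to 2.53 and the Inv3 mice from 0.866 to 1.81, which overlapped. P18 mice ranged from 3.82 to 5.93 and Lac7 mice from 5.07 to 6.40, which also overlapped, with 1 Lac7 mouse above all P18 mice. On this scale the stages formed a low pair (W10 and Inv3) and a high pair (P18 and Lac7) with no mouse of one pair inside the range of the other. P18 was 2.84-fold above W10, Lac7 was 1.14-fold above P18, and Inv3 was 4.37-fold below Lac7. The separation of the pairs is a description only, since miR-210-3p was chosen by its changes between stages.

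The Inv3 mice differed in their epithelial miRNAs as they did in miR-210-3p. The sum was 25977, 29207 and 32947 RPM in the 3 mice in which miR-210-3p was at 22.5, 26.6 and 38.1 RPM. It was 64362, 78474 and 83723 RPM in those in which miR-210-3p was at 117, 137 and 104 RPM. Of the latter sums, 1 lay within the P18 range of 52523 to 67101 RPM and 2 above it, while miR-210-3p was below the lowest P18 mouse, at 228 RPM. Per unit of epithelial miRNA the Inv3 mice were within 0.866 to 1.81, less than the 3.82 of the lowest P18 mouse.

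**Figure D3:**
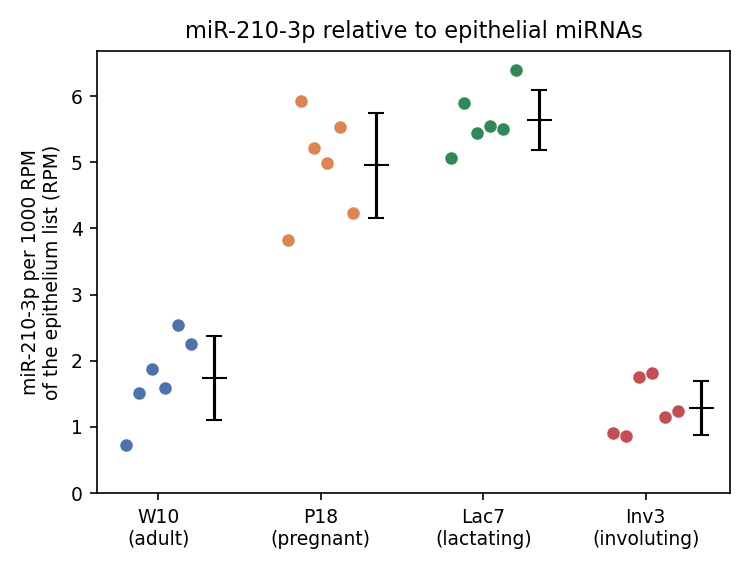
miR-210-3p per 1000 RPM of the 9 epithelial miRNAs in each mouse by stage, with the mean ± SD of 6 mice. W10 and Inv3 mice lie between 0.724 and 2.53, and P18 and Lac7 mice between 3.82 and 6.40.

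The ratio was also taken to each epithelial miRNA alone. With each of the 9 as the denominator in turn, the ratio was 2.11- to 7.89-fold higher at P18 than at W10, with no overlap for all 9. At Inv3 it was 0.0306 to 0.521 of that at Lac7, again with no overlap for all 9. For Lac7 against P18 it ran from 0.553 to 7.26, was above 1 for 6 of the 9 and had no overlap for 4. For Inv3 against W10 it ran from 0.534 to 1.75, was above 1 for 2 of the 9, and the mice overlapped for all 9. The direction of these last 2 comparisons thus depended on the denominator. The separations of stages in these ratios are a description only. All 9 ratios share a numerator that was chosen by its changes between stages, so they are not 9 separate results. The share of all miRNAs tested for which such a ratio would separate the stages was not computed.

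The single epithelial miRNAs were compared with miR-210-3p by their own fold changes, given here with their calls. From W10 to P18, 8 of the 9 were called higher, against 7.54% of all miRNAs tested, with a median log2 fold change of 1.64 against -0.32 over all. That of miR-210-3p, 3.30, was above the highest of them, 2.19. From P18 to Lac7, 6 were called higher and miR-205-5p was called lower, against 7.54% and 22.6% of all miRNAs tested, with a median of 1.12 against -0.34, and 3 of the 9 had a larger fold change than miR-210-3p. From Lac7 to Inv3, 7 were called lower and miR-205-5p higher, against 10.3% and 16.5% of all miRNAs tested, with a median of -1.52 against 0.28. The value of miR-210-3p, -3.63, was below that of all 9, the lowest being -2.70. Its place beyond the list in the first and last steps is a description only, since it was chosen by these changes.

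Against the adult gland the order was different. At Inv3, 7 of the 9 epithelial miRNAs were still called higher than at W10, against 5.51% of all miRNAs, with a median of 1.39 against -0.41. The log2 fold change of miR-210-3p, 0.96, was below that of 7 of them and above that of the other 2. miR-200a-3p, the most abundant of the 9, was at 8547 ± 1613, 34289 ± 4385, 73975 ± 7342 and 31552 ± 17899 RPM from W10 through to Inv3 (SD, n = 6). The counts of epithelial calls were the same with DESeq2 size factors, edgeR and DESeq2, except that 8 were then called higher at Inv3 than at W10.

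**Figure D4:**
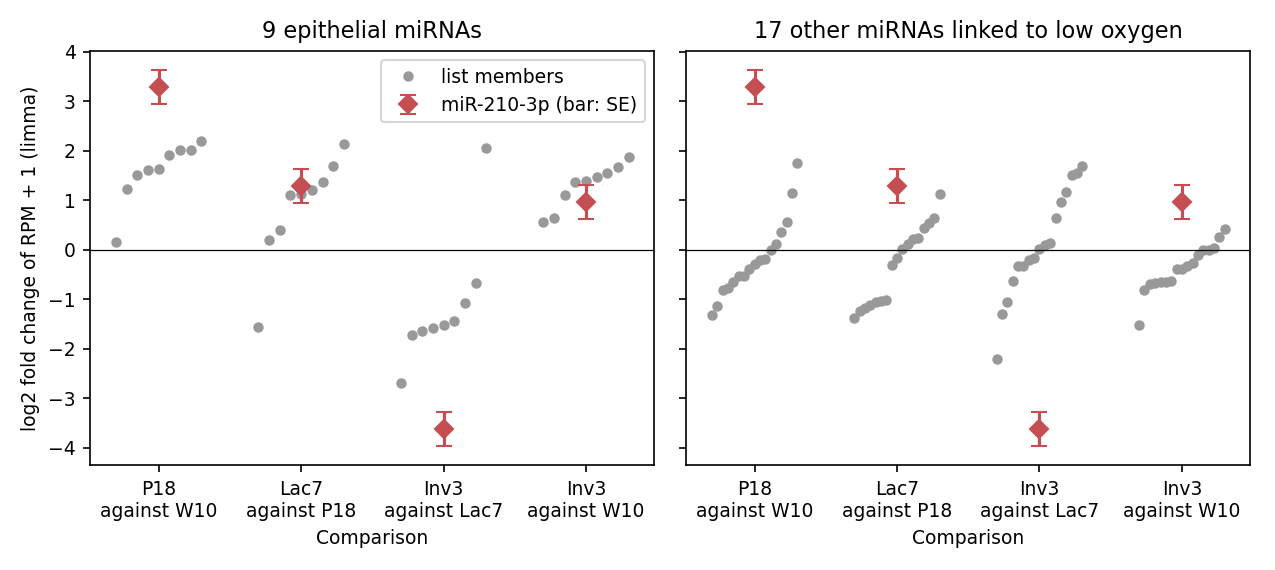
Log2 fold changes between stages of miR-210-3p (with its SE), of the 9 epithelial miRNAs and of 17 miRNAs linked to low oxygen. miR-210-3p lies beyond every member of both lists for P18 against W10 and Inv3 against Lac7, and within the range of the epithelial miRNAs for Lac7 against P18 and Inv3 against W10.

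A list of 17 other miRNAs reported to answer low oxygen in cultured cells was compared in the same way, and its members did not share one direction. The list fixed no direction of answer for its members, so nothing about low oxygen is read from their directions. From W10 to P18, 2 of the 17 were called higher (miR-181b-5p and miR-20a-5p) and 2 lower (miR-21a-5p and miR-155-5p), against 7.54% and 20.0% of all miRNAs tested, with a median log2 fold change of -0.28 against -0.32 over all. From P18 to Lac7, 1 was called higher (miR-181a-5p) and 7 lower, against 7.54% and 22.6%, with a median of -0.17 against -0.34. These 7 depended on the scale, since 1 was called lower with DESeq2 size factors, 3 with edgeR and 0 with DESeq2 on recovered reads. From Lac7 to Inv3, 4 were called higher (miR-21a-5p, miR-23a-3p, miR-155-5p and miR-199a-5p) and 3 lower (miR-103-3p, miR-181a-5p and miR-181b-5p), against 16.5% and 10.3%, with a median of 0.01 against 0.28. At Inv3 against W10, 1 of the 17 was called, miR-181c-5p, which was lower, against 19.5% of all miRNAs tested. The log2 fold change of miR-210-3p was above that of all 17 in the 2 steps up to Lac7 and at Inv3 against W10, and below that of all 17 at Inv3 against Lac7. Nothing is read from these places, since miR-210-3p was chosen by its changes between stages. In size alone, miR-155-5p differed more at Lac7 against P18 (-1.37) and miR-181c-5p more at Inv3 against W10 (-1.53).

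The 3 most abundant of these miRNAs differed from one another in profile. miR-21a-5p, known from growing and inflamed tissues, was at 32862 ± 4546, 13197 ± 1738, 10648 ± 1361 and 31169 ± 9209 RPM from W10 through to Inv3 (SD, n = 6). It fell from W10 to P18 (limma, Benjamini-Hochberg adjusted p = 2.1e-08) and rose from Lac7 to Inv3 (adjusted p = 2.2e-09), the opposite directions to miR-210-3p. miR-103-3p, known for its part in insulin sensitivity, had means of 34069, 36768, 53504 and 25849 RPM in the same order. Its log2 fold changes from stage to stage were 0.12, 0.54 and -1.06, smaller than those of miR-210-3p but in the same directions. The rise from P18 to Lac7 had a limma adjusted p of 0.00012 but was under the fold limit. miR-103-3p was called in the last step only, where it was lower. The means of miR-23a-3p were 15641, 8814, 4025 and 12043 RPM.

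The miRNAs whose levels ran most like those of miR-210-3p were ranked by the Pearson correlation of log2(RPM + 1) over the 24 libraries, among the 321 miRNAs that averaged 10 RPM or more at a stage. The closest were miR-190a-5p (r = 0.97), miR-148a-3p (0.96), miR-200b-3p (0.95), miR-141-3p (0.94) and miR-141-5p (0.93). After subtracting the stage means, which leaves the differences between mice of a stage, the closest were miR-141-3p (0.90), miR-200a-3p (0.86), miR-200b-3p (0.85), miR-190a-5p (0.85) and miR-429-3p (0.83). These values are a description. The libraries share their stage, their scaling to one total and the wide spread of the Inv3 mice. miR-190a-5p, miR-141-3p and miR-200b-3p were in both sets. The mature sequences of the closest are shown to compare their seeds, in capitals, with that of miR-210-3p.
mmu-miR-190a-5p: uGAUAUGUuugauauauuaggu
mmu-miR-148a-3p: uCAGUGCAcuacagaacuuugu
mmu-miR-200b-3p: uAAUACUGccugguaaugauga
mmu-miR-141-3p: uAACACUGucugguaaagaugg
mmu-miR-200a-3p: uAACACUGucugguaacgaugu
miR-141-3p and miR-200a-3p carry the same seed, and none of these miRNAs has that of miR-210-3p.

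Their levels differed widely from that of miR-210-3p although the profiles ran together. miR-148a-3p, one of the most abundant miRNAs of milk, was at 2356 ± 659, 21329 ± 1763, 46228 ± 2907 and 9078 ± 5737 RPM from W10 through to Inv3 (SD, n = 6). miR-190a-5p was nearer in level, at 38.5 ± 9.04, 125 ± 19.2, 254 ± 27.7 and 64.3 ± 44.7 RPM. miR-141-3p was at 393 ± 88.8, 1474 ± 301, 6411 ± 381 and 1158 ± 665 RPM. As for miR-210-3p, the SD at Inv3 was over 0.5 times the mean in all 3.

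**Figure D5:**
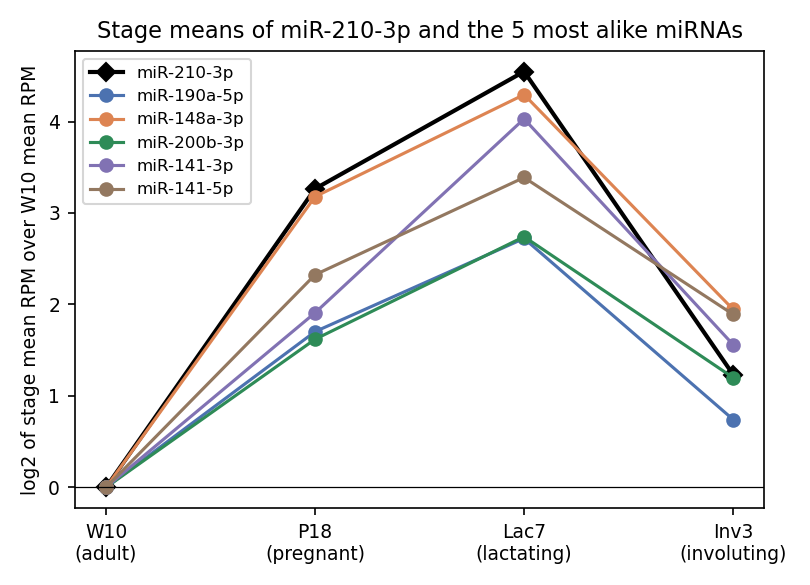
Stage means of miR-210-3p and of the 5 miRNAs most correlated with it over the 24 libraries, each as the log2 ratio to its own W10 mean. All 6 are highest at Lac7 and lower at Inv3, where each is above its W10 mean.

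The spread between mice of a stage, which did not serve to choose miR-210-3p, was compared with 7 lists of cell type miRNAs by permuting mice within stages (100000 permutations, two-sided, Benjamini-Hochberg over the 7 lists, n = 24). miR-210-3p was positively correlated with the epithelial list (r = 0.83, permutation p = 0.015, adjusted p = 0.046; Spearman's rho 0.68, adjusted p = 0.054) and with the endothelial list of miR-126a-3p and miR-126a-5p (r = 0.79, permutation p = 0.0026, adjusted p = 0.018; rho 0.65, adjusted p = 0.018). It was negatively correlated with a stromal list (r = -0.66, permutation p = 0.02, adjusted p = 0.046; rho -0.54, adjusted p = 0.073). For leukocytes, red blood cells, skeletal muscle and adipose tissue r was -0.16, 0.15, -0.09 and -0.39, with adjusted permutation p of 0.44, 0.54, 0.54 and 0.24. The lists and this test were chosen with earlier results of these data known, so these p values are not those of a test fixed beforehand.

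The involuting mice, whose values fall into 2 separate sets, weighed on these relations. Without the Inv3 mice, an alternative added after the values were seen, r was 0.22 for epithelium (adjusted permutation p = 0.84, n = 18) and 0.29 for endothelium (0.64). For stroma it was -0.52 (0.64), nearer to its value over all mice, but Spearman's rho was -0.15 (adjusted permutation p = 0.92). Over all mice that rho was -0.54. With all stages kept, the calls for epithelium, endothelium and stroma were also lost on other scales. Under size factors the adjusted permutation p was 0.11 for epithelium, 0.15 for endothelium and 0.15 for stroma. With the mean log2 level of the list it was 0.11, 0.11 and 0.14 in the same order. Within single stages the correlation with the epithelial list was 0.12 in W10, 0.46 in P18 and 0.52 in Lac7 mice, with exact permutation p over the 720 orders of 6 mice of 0.80, 0.35 and 0.30 (adjusted 0.80, 0.52 and 0.52). Spearman's rho was -0.20, 0.60 and 0.26, with exact permutation p of 0.71, 0.24 and 0.66. Without the 2 of the 6 mice farthest from the median, r in these stages was 0.12, 0.11 and -0.87. No p was computed for so few mice, and nothing is read from the change of sign at Lac7. Without the 2 mice farthest from the median of the epithelial list, r was 0.78 (permutation p = 0.055, adjusted p = 0.19, n = 22). With these numbers of mice, a relation outside involution was not shown, nor was its absence.

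Markers of other cells in the gland also moved between the stages at which miR-210-3p was compared, and their part in its levels was not tested. The 5 stromal miRNAs, of fibroblasts and smooth muscle, summed to 169005 to 211305 RPM in adult mice, 191012 to 214796 in pregnant, 147025 to 171127 in lactating and 256725 to 349601 in involuting mice. Of the 5, 0 were called higher and 1 lower at P18 than at W10, 0 and 3 at Lac7 than at P18, 3 and 0 at Inv3 than at Lac7, and 1 and 1 at Inv3 than at W10. Over all miRNAs tested, 7.54% and 20.0%, 7.54% and 22.6%, 16.5% and 10.3%, and 5.51% and 19.5% were called higher and lower in these 4 comparisons. Under size factors, edgeR and DESeq2 alike, 0 stromal miRNAs were called lower at P18 than at W10, and 2 were called higher and 0 lower at Inv3 than at W10. The 4 leukocyte miRNAs summed to 25358 to 48682 RPM in adult mice, 7029 to 23454 in pregnant, 3963 to 12084 in lactating and 13031 to 23842 in involuting mice. They were called lower for 3 of 4 in each step up to Lac7 and for 3 of 4 at Inv3 against W10, and higher for 4 of 4 at Inv3 against Lac7. Under each of the other scalings, 1 of 4 was called lower at Inv3 against W10.

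The muscle miRNAs miR-1a-3p, miR-133a-3p, miR-133b-3p and miR-206-3p summed to 2378 to 24031 RPM in adult mice, 194 to 2420 in pregnant, 104 to 5001 in lactating and 215 to 947 in involuting mice. Of the 4, 3 were called lower at P18 than at W10, 0 in either direction at Lac7 against P18, 2 lower at Inv3 than at Lac7 and 4 lower at Inv3 than at W10, to be read against the same shares. With edgeR and DESeq2 on recovered reads, 1 was called higher at Lac7 than at P18, and 4 and 3 were called lower at Inv3 than at Lac7. The W10 mice, in which miR-210-3p had its lowest mean, thus had the highest mean of muscle miRNAs, although single mice of the stages overlapped. The 3 adipose miRNAs summed to 421 to 868.2 RPM in adult mice and 125 to 204.6 in pregnant mice. The sums were 65.2 to 119 RPM in lactating and 94.2 to 242 in involuting mice. In the 4 comparisons 2, 0, 1 and 2 were called lower (0 at Inv3 against Lac7 with edgeR and DESeq2), against the same shares. The 1 call at Inv3 against Lac7 was miR-193b-3p, with means of 0.458 and 2.16 RPM, which an undetected miRNA could reach. The mean of miR-193a-3p was at most 1.20 RPM at any stage. miR-365-3p, which made up nearly all of the sum, had a log2 fold change of 0.65 at Inv3 against Lac7 and was not called. The endothelial pair, whose sum stayed between 12532 and 19549 RPM in all mice, was not called in any comparison. Of the 3 red blood cell miRNAs listed, which summed to 371 to 1953 RPM over all mice, 2 were called lower at P18 than at W10 (1 under the other scalings), 1 higher at Lac7 than at P18, 1 lower at Inv3 than at Lac7 and 0 at Inv3 against W10.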

How the data were processed

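Small RNA of 24 mammary glands was extracted with the mirVana kit and made into libraries with a QIAseq miRNA kit. Reads were trimmed (Trimmomatic 0.36 and cutadapt, per the submitters' processing notes, which name GRCm38) and assigned with QuickMIRSeq to miRBase 22. The authors deposited reads per 1000000 miRNA reads (RPM). Whether molecular identifiers were counted was not given in the sources used here, so intervals cover counting error only. Whole reads were recovered for 100% of values (within 0.01 RPM). The 544 miRNAs with a stage mean of at least 1 RPM were fitted with limma 3.58.1 (lmFit, eBayes with trend, R 4.3.3) on log2(RPM + 1) over the 24 libraries. Fold changes of low miRNAs are understated on this scale. edgeR 4.0.16 and DESeq2 1.42.0 were run on the recovered reads as alternatives, with other pseudocounts, filters and scalings. The steps were tested on simulated data. The members, the lists and the tests were chosen with earlier results of these data known. miRNAs were named by likeness to miR-210-3p (the 5 closest, with and without stage means) and by the lists (calls, and the most abundant members), and some called list members were named after their values were seen. The lists were of epithelium, stroma, leukocytes, red blood cells, skeletal muscle, endothelium, adipose tissue and low oxygen. Sequences are from RefSeq and positions from the GRCm38 annotation.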

Additional observations from a re-analysis of the deposited data

How the results depend on the processing

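The direction of the 4 comparisons of miR-210-3p was kept under every alternative run. Leaving out each mouse in turn, its log2 fold change ran from 3.07 to 3.41 for P18 against W10, from 1.22 to 1.38 for Lac7 against P18, from -3.88 to -3.37 for Inv3 against Lac7 and from 0.71 to 1.22 for Inv3 against W10. Over the other alternatives it ran from 2.95 to 3.56, from 1.27 to 1.60, from -3.81 to -3.37 and from 0.81 to 1.64, the last with edgeR. The counts of miRNAs called in these comparisons, 150, 164, 146 and 136, became 88, 82, 79 and 69 with a pseudocount of 10 RPM, and 69, 67, 66 and 59 with a filter at 100 RPM, where fewer miRNAs are tested. Leaving out each mouse, they were 145 to 155, 157 to 170, 135 to 158 and 119 to 146. The mouse numbers did not pair the samples: the deviations of same-numbered mice correlated at -0.05 on average (33 pairs), against 0.00 for the 183 others. With the replicate block the log2 fold changes were 3.29, 1.30, -3.63 and 0.96 and the calls 150, 163, 146 and 127.

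Correlations within stages were the least stable. For epithelium, r was 0.82 with size factors, 0.81 with the mean log2 level of the list, 0.78 without the 2 farthest mice and 0.22 without Inv3 mice, and the adjusted permutation p ran from 0.044 to 0.84 over the alternatives. In the same order r was -0.54, -0.59, -0.55 and -0.52 for stroma, and -0.65 with a pseudocount of 10, each with an adjusted permutation p over 0.05. For endothelium it was 0.58, 0.47, 0.48 and 0.29, with adjusted permutation p of 0.15, 0.11, 0.19 and 0.64. The cause was not tested. The share of miR-210-5p, 0.0563% at P18 and 0.235% at Inv3, had a median over mice of 0 at both stages, since 1 library held the read. The ratio to epithelial miRNAs for Lac7 against P18 was 1.35 with their geometric mean. No fold change is given for miR-210-5p, which was under 3 reads in all libraries.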
